A study of Mus musculus with 6 samples.

Results

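The genes described here are the inducible proteasome and peptide-loading genes of antigen presentation on major histocompatibility complex (MHC) class I. They were chosen by name from the deposited gene count table: Psmb8, Psmb9, Psmb10, Psme1, Psme2, Tap1, Tap2, Tapbp, Tapbpl and Nlrc5. All 10 were found among the 54532 genes of the table, and all 10 were among the 12296 genes that passed the filter on low counts. The lowest count of any member in any library was 208, for Psmb9, so no member passed the filter through its LPS libraries alone. RNA-seq was performed on N9 microglia, an immortalized cell line derived from mouse brain, in 3 libraries of untreated control cells and 3 libraries of cells given lipopolysaccharide (LPS, a gram-negative cell wall component) at 1 µg/ml for 6 h. The comparison asks which genes respond to LPS in microglia. N9 is a single cultured line, and the labels do not say whether the replicates were separate cultures, so p-values here measure the spread between these libraries.

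Cells display fragments of their own proteins on MHC class I for inspection by CD8+ T cells. The fragments are cut by the proteasome, whose 3 constitutive catalytic subunits (Psmb5, Psmb6 and Psmb7) can be replaced by Psmb8, Psmb9 and Psmb10 to form the immunoproteasome. Psme1 and Psme2 encode the alpha and beta chains of the PA28 activator, which opens the proteasome barrel. Tap1 and Tap2 form the transporter that carries peptides into the endoplasmic reticulum. There Tapbp (tapasin) holds empty class I molecules at the transporter, and Tapbpl (TAPBPR) edits their peptides away from it. Nlrc5 encodes the transcriptional coactivator of class I genes. These genes are classically inducible by interferon.

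On mouse build mm10, as the deposited table lists them, Psmb9, Tap1, Psmb8 and Tap2 lay side by side on chromosome 17, from 34181988 at the end of Psmb9 to 34216321 at the end of Tap2. Tapbp lay on the same chromosome, from 33915899 to 33929288. Psme1 and Psme2 were neighbours on chromosome 14, from 55578123 to 55581529 and from 55587441 to 55591113. Psmb10 (105935735 to 105938444) and Nlrc5 (94434356 to 94527272) were on chromosome 8, and Tapbpl (125223933 to 125231860) on chromosome 6. Psmb9 and Tap1 are read in opposite directions from a common region. Between their RefSeq starts, at chr17:34187331-34187555 of GRCm38.p6, lie 225 bases. The stretch is shown because both members start from it; it is written 5′ to 3′ on the plus strand, the strand of Tap1, with a CCAAT match in capitals:

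Psmb9/Tap1: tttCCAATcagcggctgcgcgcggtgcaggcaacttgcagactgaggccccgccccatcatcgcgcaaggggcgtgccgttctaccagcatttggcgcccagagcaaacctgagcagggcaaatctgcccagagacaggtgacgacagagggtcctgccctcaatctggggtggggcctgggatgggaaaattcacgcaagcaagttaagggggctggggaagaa

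RefSeq promoter windows, from 250 bases before to 50 bases after a gene's start, were at hand for 7 of the 10 members, with 8 windows in all (Psme2 has 2). Tap2, Tapbpl and Nlrc5 had none. The windows were searched on both strands for 4 motifs: an interferon-stimulated response element core (GAAANNGAA), an interferon gamma-activated site or GAS element (TTCNNNGAA), a kappa B site (GGGANTTTC) and a CCAAT box (CCAAT). Of all 32851 windows, 8.56%, 8.3%, 1.11% and 37.4% held each of these. The response element core was found in the Psme1 window, beginning 11 bases into the transcript, and the GAS element in the Psmb8 window, 97 bases upstream of the start. CCAAT was found in the windows of Tapbp, Psmb9 and Tap1, where Psmb9 and Tap1 share the same match. The kappa B letters were in none of the 8 windows, and no matches of different motifs overlapped. The sites of Psme1 (chr14:55578494-55578523, plus strand) and Psmb8 (chr17:34198095-34198194, plus strand) are shown with the match in capitals:

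Psme1: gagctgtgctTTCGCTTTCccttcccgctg

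Psmb8: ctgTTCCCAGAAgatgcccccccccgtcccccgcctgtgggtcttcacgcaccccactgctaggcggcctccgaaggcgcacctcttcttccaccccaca

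Total counts lay between 16363767 and 17956772 per library. Myeloid markers differed in level. Csf1r, the receptor for colony-stimulating factor 1, had between 7140 and 8027 counts, Itgam between 173 and 272, and Aif1 at most 9. Of 12 microglia markers listed, 10 were tested. With LPS, 3 were higher and 2 lower by edgeR at an adjusted p under 0.05, from a log2 fold change of 0.58 for Spi1 to -0.52 for Trem2. The defining markers of resting microglia were low, with at most 177 counts of Tmem119 and 6 of P2ry12. A list of 15 hepatocyte markers summed to 3, 302 and 520 counts in control replicates 1, 2 and 3 and to 7, 5 and 12 in the LPS replicates, which sets control replicates 2 and 3 apart. Without those control replicates, which leaves a single control library, the log2 fold changes of all 10 members stayed above 0. They ran from 0.20 for Psmb8 (0.38 with all libraries) to 1.71 for Tap1 (1.78 with all libraries). Of the neuronal markers, Rbfox3, Snap25 and Syt1 had at most 6 counts, and the list of 4 rose from between 3.79 and 4.59 to between 11.2 and 14.5 CPM through Tubb3. The astrocyte list was lower with LPS (21.5 to 25.2 against 27.9 to 29.9 CPM), as was the oligodendrocyte list (27.9 to 29.6 against 33.5 to 39.9 CPM). Most of these sums came from Aldh1l1 (mean 28.3 CPM without LPS and 23.1 with it) and Mbp (36.1 and 28.5 CPM). Gfap, with at most 10 counts, went the other way (0.111 and 0.333 CPM). The part of these markers in the results was not tested beyond that fit. In bulk RNA, a change in every cell and a change in the share of cells that express a gene cannot be told apart.

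All 10 members were up-regulated in LPS-stimulated versus control N9 microglia at an adjusted p under 0.05 by edgeR, and for each of them the lowest LPS library lay above the highest control library. Among all tested genes, 18.7% were higher by that test and 15.7% lower, and 23.7% had groups apart in that way. The changes were modest, from a log2 fold change of 0.24 for Psme1 to 1.78 for Tap1, with a median of 0.81 beside 0.00 for all tested genes. At the study's threshold for a DEG (an absolute log2 fold change over 1.5), 1 member passed, Tap1, where 2.4% of tested genes passed as up-regulated. Levels are given below as CPM (counts scaled to the library total after TMM normalization), and changes as edgeR log2 fold changes with their standard error (SE).

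**Figure D1:**
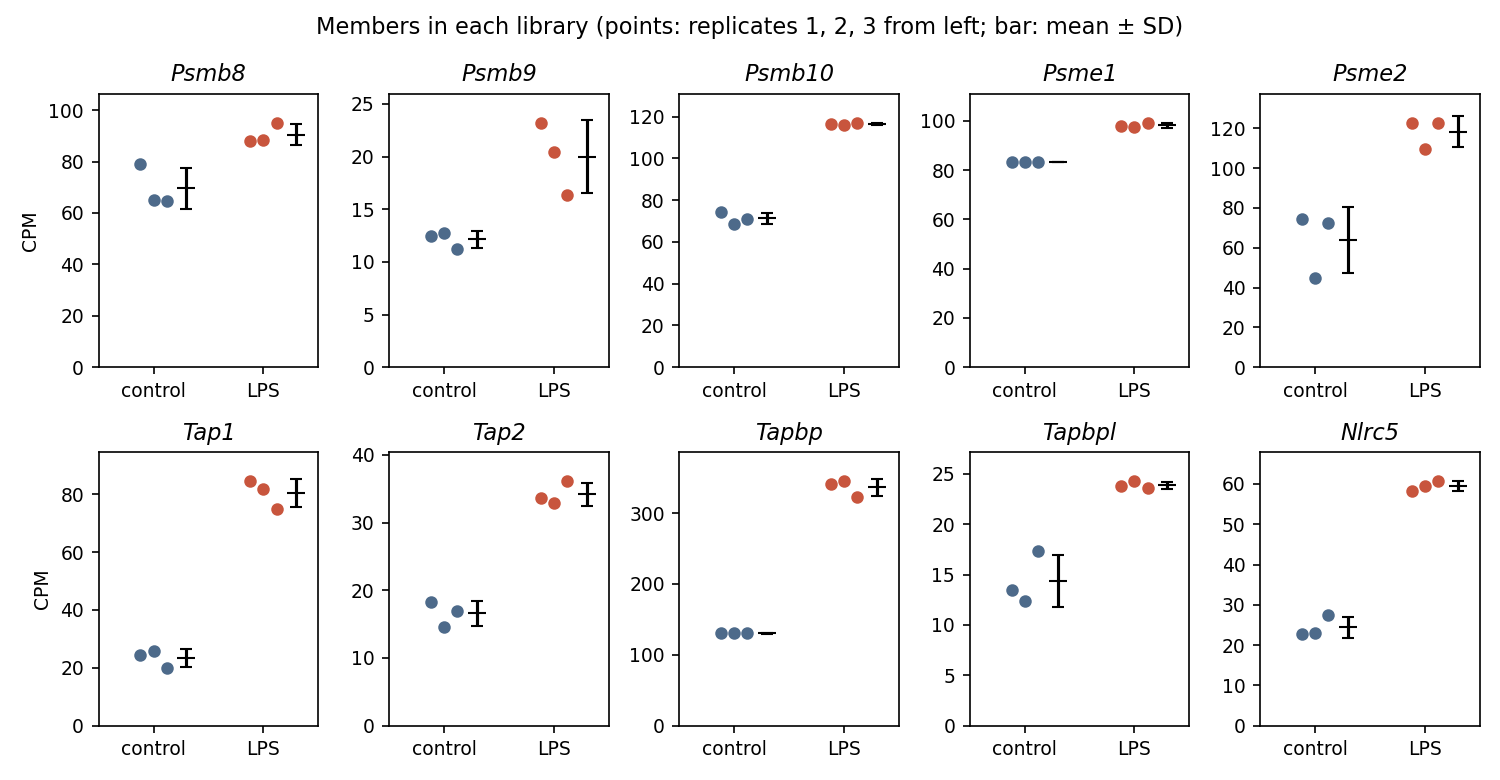
CPM of each member in the 3 control and 3 LPS libraries, each panel on its own scale from 0, with points for replicates 1 to 3 and bars for mean ± SD. The groups do not overlap in any panel; Tapbp stands highest with LPS (322 to 345 CPM), and control replicate 2 lies low for Psme2 (44.8 CPM).

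Tap1, Tapbp, Nlrc5 and Tap2 had the largest changes, each over 1 on the log2 scale. Tap1 (ENSMUSG00000037321) had 24.5, 25.9 and 19.8 CPM in control replicates 1, 2 and 3 and 84.4, 81.9 and 75.0 CPM in the LPS replicates. Even the lowest LPS library was well above the highest control library. The change was 3.44-fold, a log2 fold change of 1.78 (SE 0.08, edgeR adjusted p = 3.5e-10), and only 1.92% of tested genes ranked above it. Tap2 (ENSMUSG00000024339), the other chain of the transporter, had 18.3, 14.6 and 16.9 CPM without LPS and 33.6, 32.9 and 36.1 CPM after it. It rose 2.06-fold, by 1.04 on the log2 scale (SE 0.09, edgeR adjusted p = 4.0e-07). The 95% interval of Tap2 (0.85 to 1.24) lay below that of Tap1 (1.60 to 1.97).

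Tapbp (ENSMUSG00000024308), the bridge between transporter and class I, was the most abundant member after LPS. It had 130.1, 131 and 130.1 CPM in the control libraries and 342, 345 and 322 CPM in the LPS libraries. The control libraries were almost level, with an SD of 0.558 CPM, and the rise was 2.58-fold (log2 fold change 1.37, SE 0.04, edgeR adjusted p = 3.9e-12). Of the exonic bases of Tapbp in GENCODE M21, 149 also belong to Zbtb22 on the same strand, or 4.11%. Tapbpl (ENSMUSG00000038213), the tapasin-related editor, was much less abundant, at 13.4, 12.4 and 17.3 CPM in control replicates 1, 2 and 3 and 23.8, 24.3 and 23.6 CPM with LPS. It rose by 0.73 (SE 0.11, edgeR adjusted p = 1.5e-04), with the widest spread among the control libraries in replicate 3. The change was 0.62 without control replicate 2 and 0.88 without control replicate 3.

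Nlrc5 (ENSMUSG00000074151), the class I coactivator, had 22.7, 23.1 and 27.5 CPM in the control libraries and 58.3, 59.5 and 60.6 CPM in the LPS libraries. All LPS libraries lay within a narrow band more than double the highest control library. The log2 fold change was 1.28 (SE 0.08, edgeR adjusted p = 4.2e-09), a 2.43-fold change. Ciita, the related coactivator of MHC class II genes, was at 0 counts in every control library and at 1, 3 and 3 counts in the LPS libraries, at or under the limit of 3 counts, and was not tested.

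The catalytic subunits of the immunoproteasome rose by less than the transporter, Psmb9 and Psmb10 by 0.72 and 0.71 on the log2 scale and Psmb8 by 0.38. Psmb10 (ENSMUSG00000031897), which takes the place of Psmb7, had 74.1, 68.8 and 71.2 CPM in control replicates 1, 2 and 3 and 116, 116 and 117 CPM in the LPS replicates. It was among the tightest members and rose 1.63-fold (log2 fold change 0.71, SE 0.05, edgeR adjusted p = 1.3e-08). Psmb9 (ENSMUSG00000096727), which takes the place of Psmb6, was the least abundant catalytic subunit, with 12.5, 12.7 and 11.2 CPM against 23.2, 20.4 and 16.3 CPM. Its LPS libraries were spread more than its control libraries, and LPS replicate 3 was closest to them. The log2 fold change was 0.72 (SE 0.12, edgeR adjusted p = 3.7e-04), or 0.85 without LPS replicate 3 and 0.60 without LPS replicate 1. Psmb8 (ENSMUSG00000024338), which takes the place of Psmb5, had 78.9, 65.1 and 64.8 CPM in control replicates 1, 2 and 3 and 88.0, 88.4 and 95.05 CPM with LPS. Control replicate 1 stood above the other control libraries, although all 3 lay below the LPS libraries. Psmb8 rose 1.3-fold (log2 fold change 0.38, SE 0.07, edgeR adjusted p = 6.0e-04). Without control replicates 2 and 3, those with hepatocyte transcripts, its log2 fold change was 0.20 (edgeR adjusted p = 0.069), no longer past the threshold.

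Of the chains of PA28, Psme1 had the smaller change. Psme1 (ENSMUSG00000022216) had 83.2 CPM in each control library and 97.8, 97.5 and 99.2 CPM with LPS. Its change was the smallest of the 10, 1.18-fold (log2 fold change 0.24, SE 0.04, edgeR adjusted p = 5.6e-04), yet the libraries of each group lay close together. Psme2 (ENSMUSG00000079197) had 74.5, 44.8 and 72.7 CPM in control replicates 1, 2 and 3 and 123, 110 and 123 CPM in the LPS replicates, a log2 fold change of 0.89 (SE 0.13, edgeR adjusted p = 8.0e-05). Control replicate 2 lay far below the other control libraries, and without it the change was 0.68.

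Psme2 has a near-identical copy with which it can share reads. Psme2b (ENSMUSG00000078153), on chromosome 11 from 48945354 to 48946190, was looked at after the Psme2 counts had been seen. Its 837-base transcript in GENCODE M21 aligned to the longest Psme2 transcript over 794 bases with 5 mismatches and no gap (99.4% identity). Of its windows of 50 bases, 68.6% occur unchanged in that Psme2 transcript. All 5 mismatches fall in the 717 coding bases. The following coding stretch of 90 bases, shown because it holds 3 of them, has the mismatches in capitals:

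Psme2: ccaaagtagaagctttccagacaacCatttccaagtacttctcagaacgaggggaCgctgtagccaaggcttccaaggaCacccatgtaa

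Psme2b: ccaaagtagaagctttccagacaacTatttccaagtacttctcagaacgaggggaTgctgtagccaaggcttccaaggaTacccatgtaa

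In control replicates 1, 2 and 3, Psme2 had 1276, 791 and 1351 counts and Psme2b had 574, 878 and 527. The library low in Psme2 was the library high in Psme2b. In the LPS replicates, Psme2 had 1937, 1796 and 2017 counts and Psme2b had 707, 909 and 723, so that LPS replicate 2 was likewise lowest in Psme2 and highest in Psme2b. Psme2b took 31%, 52.6% and 28.1% of their joint counts without LPS and 26.7%, 33.6% and 26.4% after it. Joined, they came to 108, 94.6 and 101 CPM in the control replicates and 168, 165 and 167 CPM in the LPS replicates. The SD of the control libraries was 16.6 CPM for Psme2 alone and 6.69 CPM for the sum, although the sum has the larger mean. Counted as a single gene, an alternative added after the data were seen, they rose by 0.72 (edgeR adjusted p = 3.5e-08). Psme2b on its own had a log2 fold change of 0.37 (SE 0.15, edgeR adjusted p = 0.0766). The size of the Psme2 change thus differs with the treatment of its copy, and its call does not.

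**Figure D2:**
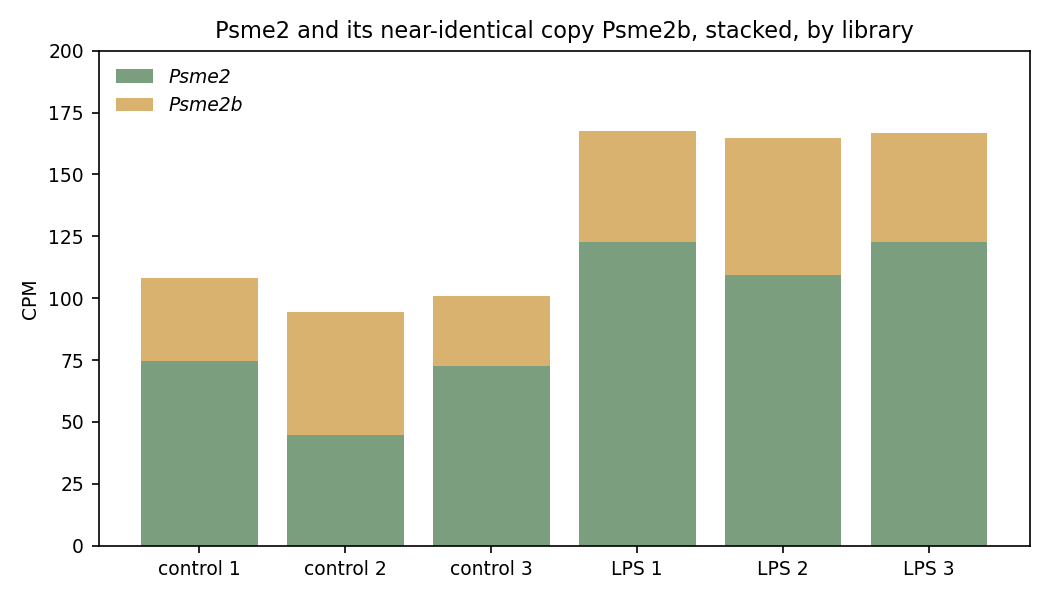
CPM of Psme2 (lower part of each bar) and Psme2b (upper part) in each library, stacked from 0. In control replicate 2 the Psme2 part is the shortest (44.8 CPM), while the joined height (94.6 CPM) is near that of the other control libraries (108 and 101 CPM).

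**Figure D3:**
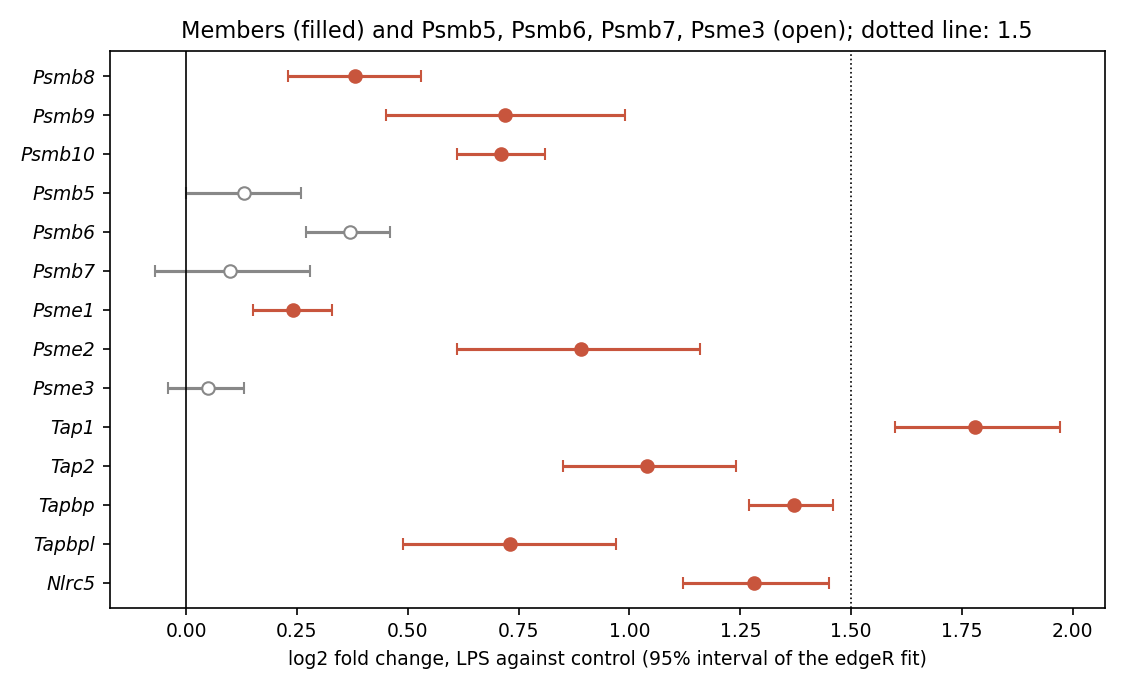
Log2 fold change of each member (filled) and of Psmb5, Psmb6, Psmb7 and Psme3 (open), LPS against control, with the 95% interval of the edgeR fit; the dotted line marks the DEG threshold of 1.5. Tap1 lies beyond the line, and the intervals of all 10 members lie above 0.

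Levels were compared between genes per length, as CPM per kilobase of the deposited gene length (RPKM). In control cells Psmb10 had the highest mean of the 10, at 41.8 ± 1.56 RPKM (SD, n = 3), followed by Tapbp at 39.6 ± 0.169, Psme1 at 37.7 ± 0.00644, Psme2 at 36.3 ± 9.42 and Psmb8 at 25.4 ± 2.94. The others lay well below, Tapbpl at 6.11 ± 1.11, Tap2 at 4.4 ± 0.494, Tap1 at 4.27 ± 0.581, Psmb9 at 3.31 ± 0.224 and Nlrc5 at 2.87 ± 0.316 RPKM. Of neighbours in that order, Psme1 and Psme2, Psme2 and Psmb8, Tap2 and Tap1, and Psmb9 and Nlrc5 overlapped between libraries. Psme2 ran from 25.4 RPKM in control replicate 2 to 42.2 RPKM and so also overlapped Psmb10 and Tapbp, and its place in the order rests on that library. After LPS the order began with Tapbp at 102 ± 3.68 RPKM, and Psmb10 at 68.3 ± 0.323 and Psme2 at 67.1 ± 4.34 followed and overlapped. Psme1 (44.4 ± 0.432) and Psmb8 (33.1 ± 1.44) came next. Tap1 moved ahead of Tapbpl and Tap2, at 14.7 ± 0.889 against 10.2 ± 0.155 and 9.05 ± 0.443 RPKM, and Nlrc5 (7 ± 0.141) ahead of Psmb9 (5.46 ± 0.946), with no overlap between these neighbours. The deposited length equalled the joined exons of the gene in GENCODE M21 for 7 of the 10 members, and differed for Psmb8 (2736 against 3381 bases), Tapbp (3296 against 3628) and Psmb9 (3659 against 3660). A longer length lowers the RPKM. In control cells the place of Tapbp above Psme1 and Psme2 thus holds for the deposited length only.

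Within each library, 8 pairs of genes were compared as log2 ratios of their levels per length. With 3 libraries against 3 the two-sided exact permutation test cannot give a p below 0.10, and 7 of the 8 pairs were at that limit (0.11 after Benjamini-Hochberg adjustment over the 8 pairs). The exception was Psmb9/Psmb6 (exact permutation p = 0.20), whose groups overlapped. Each induced subunit was set against the constitutive subunit that it replaces. Psmb8/Psmb5 stood at 0.187, 0.182 and 0.179 before LPS and at 0.209, 0.222 and 0.223 after it. The control ratios were nearly level although control replicate 1 was high for Psmb8, since Psmb5 was high there too. Psmb9/Psmb6 stood at 0.0176, 0.0193 and 0.0168 before LPS and at 0.0263, 0.0244 and 0.0181 after it, where replicate 3 fell among the control values. Psmb10/Psmb7 went from 0.686, 0.817 and 0.874 to 1.18, 1.25 and 1.14. Of the ratios of induced to constitutive subunits only this passed 1, and that depends on the gene lengths: as plain counts it went from between 0.342 and 0.436 to between 0.57 and 0.622.

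Partners within the loading machinery were also compared. Tap1/Tap2 rose from 0.924, 1.22 and 0.809 to 1.74, 1.72 and 1.43, a mean log2 difference of 0.74. Psme1/Psme2 went from 0.892, 1.48 and 0.914 to 0.636, 0.71 and 0.645, a log2 difference of -0.68, or -0.45 without control replicate 2 and -0.48 with Psme2b added to Psme2. Psmb9/Tap1, the pair that starts from the shared stretch printed above, fell from 0.762, 0.735 and 0.846 to 0.411, 0.373 and 0.326, a log2 difference of -1.08. Per length, Tap1 was above Psmb9 in every library, and more so in the LPS libraries. In GENCODE M21 the exons of this pair overlap on opposite strands by 212 bases (5.79% of the exonic bases of Psmb9), and the handling of strand in counting is not given in the sources used here. Tapbpl/Tapbp fell from 0.145, 0.132 and 0.187 to 0.0975, 0.0986 and 0.102. Psme1/Psme3, which sets PA28 alpha against the nuclear activator PA28 gamma, went from 0.459, 0.445 and 0.441 to 0.512, 0.504 and 0.519.

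**Figure D4:**
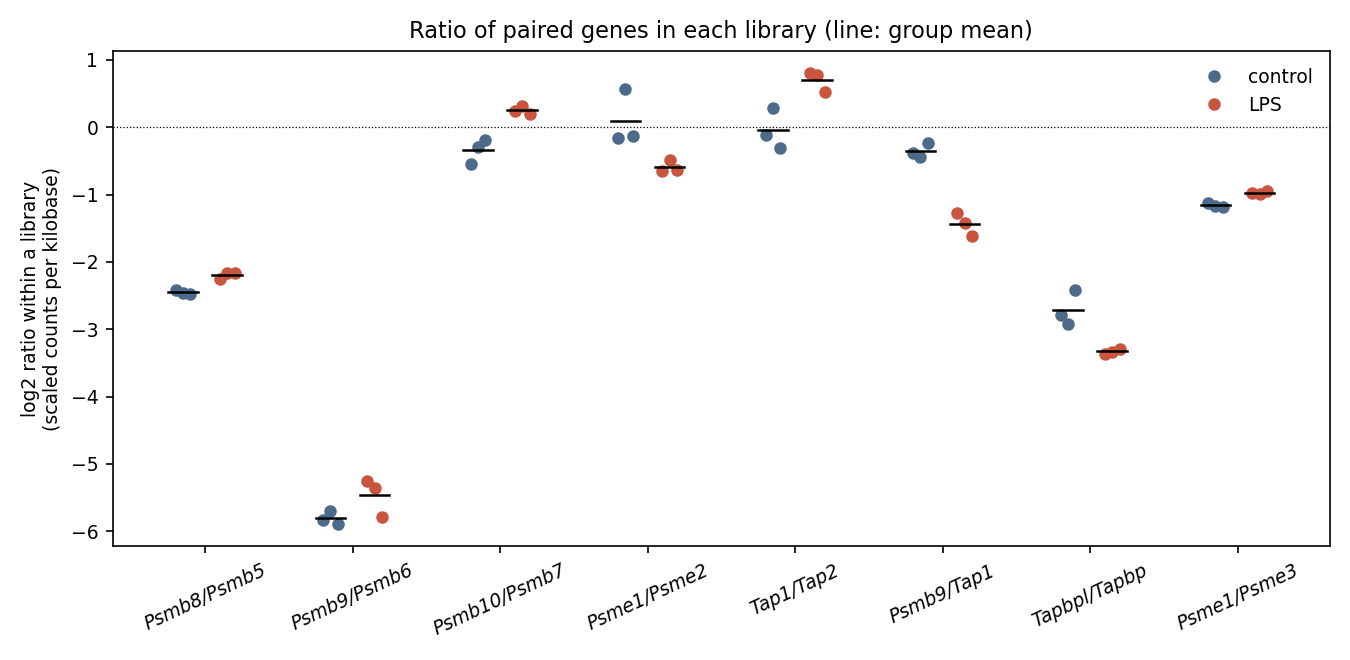
Log2 ratio of 8 pairs of genes within each library, from TMM-scaled counts per kilobase, with a line at each group's mean. The groups are apart for 7 pairs and overlap for Psmb9/Psmb6; the place of 0 depends on the gene lengths, so the pairs are read by the gap between groups, from 0.19 for Psme1/Psme3 to -1.08 for Psmb9/Tap1.

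No gene of the constitutive proteasome lists below rose by more than Psmb6. Of the 3 constitutive catalytic subunits, Psmb6 was called higher, from 347 ± 14.5 to 447 ± 16.8 CPM (SD, n = 3; log2 fold change 0.37, SE 0.04, edgeR adjusted p = 1.1e-05). Psmb5 (0.13, SE 0.06, edgeR adjusted p = 0.121) and Psmb7 (0.10, SE 0.08, edgeR adjusted p = 0.376) did not pass. Their values turned on the control libraries left out: both passed without control replicate 1, at 0.20 and 0.23, and both were below 0 without control replicates 2 and 3, at -0.02 and -0.14. Of the 11 other subunits of the 20S core, 4 were called higher and none lower, and the highest was Psma5 (0.22, SE 0.05, edgeR adjusted p = 0.00201), an alpha-ring subunit, and the lowest Psma1 (0.00, edgeR adjusted p = 0.994). When single libraries were left out, between 1 and 5 of them were called. Of 18 subunits of the 19S regulator, which unfolds tagged proteins, 5 were called higher and none lower, led by Psmd11 (0.27, SE 0.04, edgeR adjusted p = 1.4e-04) and lowest for Psmd13 (-0.03, edgeR adjusted p = 0.665), and from 3 to 6 with each library left out. The 8 other genes of proteasome activity and assembly had no call in either direction, from -0.12 for Psmg2 to 0.18 for Psmg4, Psme3 among them (0.05, SE 0.04, edgeR adjusted p = 0.414). Psmg4 was at 0.10 without control replicate 2, and Psme3 at 0.02 without control replicate 1. The medians of these lists lay between 0.06 and 0.13.

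Genes that act after the proteasome follow by role. Of 7 peptide-trimming enzymes, 1 was called, Erap1, the aminopeptidase that trims peptides in the endoplasmic reticulum, from 86.5 ± 3.76 to 103 ± 2.6 CPM (SD, n = 3; log2 fold change 0.26, SE 0.05, edgeR adjusted p = 7.1e-04). The lowest was Blmh, at 0.01 (edgeR adjusted p = 0.862). The general chaperones of the loading complex, Calr, Canx and Pdia3, had log2 fold changes of -0.02, -0.01 and -0.04, and none of the 3 was called. Of 10 class I genes listed, 9 were tested, 7 were called higher and none lower, with a median of 0.78. B2m, the common light chain, rose from 499 ± 2.21 to 690 ± 38.4 CPM (log2 fold change 0.47, SE 0.04, edgeR adjusted p = 4.5e-07). The classical heavy chains H2-K1 and H2-D1 rose by 0.64 (SE 0.04, edgeR adjusted p = 2.0e-08) and 0.78 (SE 0.04, edgeR adjusted p = 3.3e-10). H2-T24 rose most, from 3.04 ± 0.248 to 12.03 ± 1.45 CPM (log2 fold change 1.98, SE 0.15, edgeR adjusted p = 9.0e-08), and was the only DEG of the list. H2-M3 and H2-Q7 were lowest, both at 0.22 (edgeR adjusted p = 0.174 and 0.728). H2-M3 was at 0.12 without LPS replicate 2 and passed without LPS replicate 3, at 0.33. Heavy chain genes are close paralogs, and their reads could be divided between them.

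Among regulators that act on class I promoters, the interferon-signalling gene Stat2 was the highest. Of 15 listed, 14 were tested, with 8 called higher and 1 lower, and a median log2 fold change of 0.21. With single libraries left out, 7 were called higher, or 8 without LPS replicate 3. In these fits 1 was called lower, or 2 without LPS replicate 2. DESeq2, RLE size factors and no filter each gave 7 higher. Stat2 rose from 18.9 ± 2.64 to 89.6 ± 7.33 CPM (SD, n = 3; log2 fold change 2.24, SE 0.09, edgeR adjusted p = 3.6e-11). Irf1, a direct activator of several immunoproteasome and transporter genes, rose from 11 ± 1.07 to 27.1 ± 0.789 CPM (log2 fold change 1.30, SE 0.10, edgeR adjusted p = 5.5e-08). Irf8, a myeloid lineage factor, fell by 0.41 on the log2 scale (SE 0.06, edgeR adjusted p = 6.6e-05), from 74.8 ± 3.61 to 56.4 ± 3.3 CPM. The subunits of the RFX complex that works with Nlrc5, Rfx5, Rfxap and Rfxank, had log2 fold changes of 0.21, 0.10 and -0.14, and none of the 3 passed the test.

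**Figure D5:**
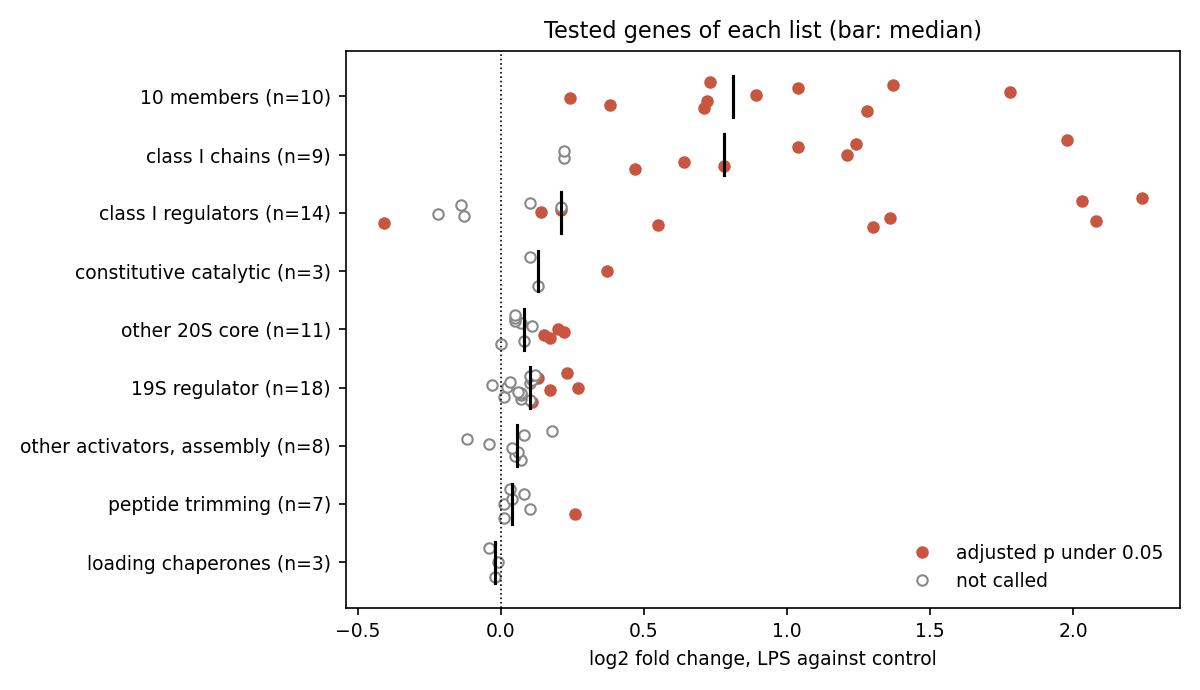
Log2 fold change, LPS against control, of each tested gene in 9 lists of the class I pathway, filled where the edgeR adjusted p is under 0.05, with a bar at the list's median. The medians of the 10 members (0.81) and the class I chains (0.78) lie to the right of those of the proteasome, trimming and chaperone lists (-0.02 to 0.13), while single genes overlap, such as Psme1 (0.24) and Psmb6 (0.37). Between them lies the median of the class I regulators (0.21).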

How the data were processed

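The authors deposited whole-number read counts per gene for 6 libraries of N9 microglia, sequenced by Novogene and not normalized. The submitters' processing notes name featureCounts version 1.5.0-p3 and mm10; the aligner and the use of strand are not given in the sources used here. A second table, with the authors' own fold changes, p-values and 18 further columns of values per sample, was not used. Libraries were grouped by the labels.

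The counts were tested with edgeR 4.0.16 under R 4.3.3: quasi-likelihood test, TMM normalization, filterByExpr by group, a prior count of 0.125, and Benjamini-Hochberg adjustment over the 12296 tested genes. The SE is the log2 fold change divided by the square root of F. The study used DESeq2, which is an alternative here (version 1.42.0). The fits were tested on simulated data. Libraries of a group were not copies of each other: their counts differed beyond sampling noise (chi-square per gene from 3.56 to 7.74). In total, 3 counts correspond to between 0.161 and 0.19 CPM, a limit that covers counting error only. Alignment used Biopython 1.88, and figures used matplotlib 3.10.9.

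The members, the lists and the motifs were chosen with earlier results of these data known. Genes named are the members, Psmb5, Psmb6, Psmb7, Psme3, B2m, H2-K1, H2-D1, Irf1 and Ciita, and the highest and lowest tested gene of each pathway list (not of the cell type marker lists); others were named after their values were seen, and 1 named by the rule is not reported here. Alternatives were DESeq2, RLE size factors, no filter, a mean of at least 10 counts, a replicate block, each library left out, control replicates 2 and 3 left out together, and plain counts plus 0.5 for ratios. A planned comparison of protein sequences was not run.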

Additional observations from a re-analysis of the deposited data

How the results depend on the processing

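Of 120 log2 fold changes of the 10 members under 12 other settings, 119 kept their direction and their side of the threshold; Psmb8 without both control replicates 2 and 3 did not (0.20, adjusted p = 0.069). In that fit the single control library is assumed to vary like the LPS libraries. With each library left out in turn, all 10 members were called, 1 as a DEG; over all genes, from 3379 to 4081 were called (4221 with all libraries) and from 353 to 377 were DEG (326). Values near 0 changed sign: Psma1 (0.00) was at -0.01 with DESeq2, RLE size factors and no filter, at -0.00 with the replicate block and at -0.03 without both control replicates 2 and 3, where Psmb5 was at -0.02, Psmb7 at -0.14 and Canx at 0.00. With each library left out, Psma1 ran from -0.05 to 0.04, Blmh from -0.01 to 0.03 and Canx from -0.03 to 0.01. Of the class I regulators, 2 were called lower, against 1, with RLE size factors, with the replicate block and without LPS replicate 2. The cause was not tested.

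Replicate numbers are shared between groups. The deviations of same-numbered libraries correlated at 0.14, 0.06 and -0.00, and those of differently numbered libraries at -0.14 to 0.09. With 3 libraries per group, such values cannot decide whether the numbers pair the libraries. The main fit did not pair them. With the replicate block all 10 members were called (Psmb8 at 0.38), and Psmb5 passed at 0.13. Over all genes, 4474 were called with the block and 4221 without it. Depth limits Ciita and H2-Q6, which were below the filter.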
